A study of Homo sapiens with 8 samples.

Results

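The peaks described here are the HepG2-only G-quadruplex (G4) peaks outside promoters. They were chosen by peak calls: an interval found in at least 6 of 9 HepG2 replicates was kept where it shared no base with any interval found in at least 2 of 8 K562 replicates and did not overlap the 1 kb upstream of any annotated transcription start site (TSS). Of 8776 HepG2 high-confidence intervals, 2887 (32.9%) shared no base with a K562 interval. Of these 897 overlapped a promoter, which left 1990 peaks, 22.7% of the HepG2 list. What the choice used, absence from the K562 calls and from promoters, is a description and no finding.

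HepG2 is a hepatocellular carcinoma cell line and K562 a chronic myelogenous leukemia cell line that can enter erythroid differentiation. The labels name no treatment of either line. In each line 3 G4 ChIP libraries and 1 input library are labelled. The replicates counted in the lists are technical repeats of 3 independent experiments per line, and the labels do not tie a library to them. G4s were captured from fixed, sheared chromatin with the antibody BG4. The deposited lists merge replicates and give positions only, so peak heights, depth and replicate spread are unknown, and a peak missing from the K562 list is a peak that was not called there. Peaks are not replicates: tests and intervals below describe these lists and not the spread between cultures.

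A G4 is a 4-stranded DNA structure in which guanines of nearby G-runs stack in planar layers held together by Hoogsteen hydrogen bonds. In chromatin, G4s are known to be found mostly in open, GC-rich promoters. Away from promoters, open chromatin differs between cell types, and its enhancers carry short recognition sequences for the factors of that cell type. In hepatocytes these include HNF4A, a nuclear receptor, HNF1, a homeodomain factor, and FOXA, a forkhead factor that opens chromatin. GATA factors and KLF1 have a comparable place in erythroid cells.

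Sequences of the peaks at genes of the 3 liver gene lists were read from GRCh37. The first set is shown because letters recognised by HNF4A, HNF1 or FOXA lie inside the peak. Capitals mark those letters. It holds such peaks of at most 300 bp that overlap no untranslated region.
AMBP upstream, HNF1 letters, chr9:116843268-116843384, plus strand: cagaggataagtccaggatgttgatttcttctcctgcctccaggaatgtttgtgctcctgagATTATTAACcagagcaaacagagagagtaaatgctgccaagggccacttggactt
ITIH1 upstream, HNF4A letters, chr3:52809456-52809680, plus strand: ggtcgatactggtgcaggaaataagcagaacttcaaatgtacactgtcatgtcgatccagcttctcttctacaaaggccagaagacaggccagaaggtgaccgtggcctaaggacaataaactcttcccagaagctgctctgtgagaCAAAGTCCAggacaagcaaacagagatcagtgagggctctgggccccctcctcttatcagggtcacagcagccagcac
ASS1 intron, HNF4A letters, chr9:133325978-133326134, plus strand: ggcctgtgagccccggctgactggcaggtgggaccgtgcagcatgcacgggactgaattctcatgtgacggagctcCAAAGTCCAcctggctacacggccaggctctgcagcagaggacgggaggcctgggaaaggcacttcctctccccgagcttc
SCARB1 intron, HNF4A letters, chr12:125336999-125337136, plus strand: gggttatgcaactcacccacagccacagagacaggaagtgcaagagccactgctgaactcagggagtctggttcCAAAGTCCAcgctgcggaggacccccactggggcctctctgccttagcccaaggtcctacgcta
HNF4A intron, FOXA letters, chr20:42999360-42999560, plus strand: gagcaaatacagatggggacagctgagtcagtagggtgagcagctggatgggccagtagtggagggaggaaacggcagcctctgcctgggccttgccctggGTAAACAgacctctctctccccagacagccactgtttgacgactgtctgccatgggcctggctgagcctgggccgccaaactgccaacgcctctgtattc
RXRA intron, HNF4A letters, chr9:137256696-137256811, plus strand: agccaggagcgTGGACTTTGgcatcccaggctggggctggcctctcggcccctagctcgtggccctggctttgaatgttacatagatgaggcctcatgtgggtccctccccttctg
RXRA intron, HNF1 letters, chr9:137326993-137327078, plus strand: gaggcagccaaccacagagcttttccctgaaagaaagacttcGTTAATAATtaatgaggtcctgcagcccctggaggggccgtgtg
MLXIPL intron, FOXA letters, chr7:73027126-73027297, plus strand: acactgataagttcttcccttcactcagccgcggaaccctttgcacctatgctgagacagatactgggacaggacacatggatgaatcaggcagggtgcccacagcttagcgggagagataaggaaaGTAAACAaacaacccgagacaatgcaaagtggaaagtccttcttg
AMBP encodes the precursor of alpha-1-microglobulin and bikunin, and ITIH1 a heavy chain that is joined to bikunin in plasma. ASS1 is a urea cycle enzyme, SCARB1 the receptor for high-density lipoprotein, RXRA the nuclear receptor that pairs with many others, and MLXIPL the glucose-responsive factor ChREBP. None of these 8 peaks held a G4 motif, and their GC content was 46.2% at AMBP and up to 64.3% at ASS1.

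The second set shows G4 motifs found inside HepG2-only peaks, to set the same loci beside their G-runs. Capitals mark runs of at least 3 G, and each line is written 5′ to 3′ on the strand that carries the runs. The first motif of a peak is given where it held several. The first line comes from a peak with 3 motifs, the most in any peak, and the others from peaks at liver genes.
intergenic, upstream of CDC34, chr19:524198-524219, minus strand: GGGGagctGGGcGGGGcaGGGG
upstream of SERPINF2, chr17:1639721-1639747, plus strand: GGGGGcGGGagccacGGGGcagtGGGG
upstream of APOE, chr19:45407304-45407326, plus strand: GGGGGcaGGGagctGGGagaGGG
upstream of AMBP, chr9:116843670-116843690, plus strand: GGGGctcaGGGaGGGGatGGG
HNF4A intron, chr20:43040161-43040178, plus strand: GGGaGGGGtgtGGGcGGG
upstream of CEBPB, chr20:48805828-48805851, plus strand: GGGGccaGGGctGGGGtcagtGGG
upstream of NR2F6, chr19:17358867-17358888, minus strand: GGGccgcGGGcaGGGGtcaGGG
SERPINF2 encodes the plasmin inhibitor alpha-2-antiplasmin and APOE an apolipoprotein. NR2F6 is a nuclear receptor, and CEBPB is a leucine zipper factor of the liver and other tissues. At AMBP and at HNF4A a peak printed with HNF1 or FOXA letters and another with a G4 motif lay at the same gene, in different intervals. All 3 peaks at AMBP and all 3 at HNF4A had letters of at least 1 hepatocyte factor in the 200 bp around their centre. The SERPINF2 peak had FOXA letters there as well as its G4 motif. Its width of 426 bp was above the limit of the first set. The peaks upstream of SERPINF2, CEBPB and NR2F6 lay in introns of neighbouring genes. Of the 5 peaks with most motifs, 3 held 2 each and lay upstream of NKD1 (chr16:50501973-50502440), RABL2A (chr2:114361057-114361517) and SEMA3B (chr3:50302001-50302440).

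The peaks were narrow. Their width ran from 1 to 575 bp with a median of 136.5 bp and quartiles of 86 and 202 bp, and 246 peaks (12.4%) were under 50 bp. An interval is the stretch called in at least 6 replicates, so a short one is the overlap of wider calls. The wider interval called in at least 2 of 9 replicates that holds each peak had a median width of 309 bp, of which the peak took a median of 47.0%. Because 190 peaks shared such a wider interval with another peak, up to 4 in the same interval, the count of peaks is above the count of separate sites, 1889.

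The widest peak spanned 575 bp at chr4:3838434-3839008, between genes and 70609 bp downstream of the start of ADRA2C, and its GC content was 61.2% with 1 G4 motif. The second, 554 bp at chr10:81095322-81095875, lay 11626 bp upstream of PPIF. The third, 518 bp at chr2:47261440-47261957, lay in an intron of TTC7A. The others of the 10 widest were 468 to 512 bp wide. Among them was a 492 bp peak in an intron of the lncRNA LINC00511, 292426 bp from the start of SOX9, and a 470 bp peak 11601 bp upstream of ZKSCAN1 with letters of HNF4A, FOXA and C/EBP. Of the 10, 3 held a G4 motif.

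The gap to K562 calls is a description, since the choice required that no base be shared and no expected gap was computed. To the nearest K562 interval of at least 2 replicates it had a median of 20474 bp and quartiles of 6208 and 66520 bp. Within 500 bp of such an interval lay 58 peaks (2.91%), and within 10 kb 696 peaks (35.0%). At the edge of the choice, a 49 bp peak in an NFATC2 intron touched a K562 interval with a gap of 0 bp, a 78 bp peak in PPCDC was 2 bp away and a 175 bp peak in SUFU was 5 bp away. Just outside, 3 HepG2 intervals shared only 2, 2 and 3 bp with K562 calls and were left out. Towards promoters, peaks at USP36, VGLL4 and LRRD1 were kept 1, 2 and 4 bp from the edge, and intervals at SLC6A12, HEXIM1 and ADM were left out for an overlap of 1, 1 and 2 bp.

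The HepG2-only peaks outside promoters were the least GC-rich of the sets compared. Their median GC content was 56.7% (quartiles 52.0% and 61.4%), against 67.4% in the 390 HepG2 peaks outside promoters that share a base with the K562 high-confidence list, called common peaks, 63.8% in 981 K562-only peaks outside promoters and 61.7% in the 897 HepG2-only promoter peaks. A GC content of at least 60% was found in 32.4% of the HepG2-only peaks, in 85.9% of common peaks, in 70.9% of K562-only peaks and in 59.5% of HepG2-only promoter peaks. The odds ratios were 0.0786 (95% interval 0.0582 to 0.106, adjusted p = 2.49e-88), 0.196 (0.166 to 0.231, adjusted p = 1.60e-88) and 0.325 (0.276 to 0.383, adjusted p = 2.78e-42) by two-sided Fisher's exact tests, with Benjamini-Hochberg adjustment over 6 tests of GC and motif.

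**Figure D1:**
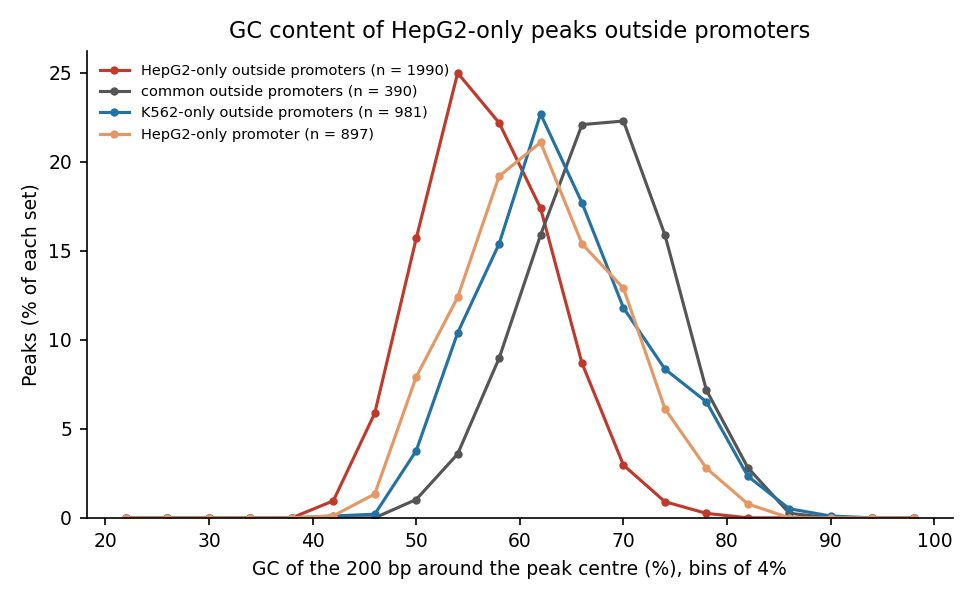
GC content of the 200 bp around each peak centre (x axis, percent, in bins of 4%) against the share of each peak set (y axis, percent). Points joined by lines stand for the 4 sets, and the HepG2-only peaks outside promoters have a window median of 56.0%, below the 63.5% of K562-only and the 67.5% of common peaks.

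The CpG content was also lowest in these peaks. In the 200 bp around the centre, the observed count of CpG over that expected from C and G had a median of 0.237 in the HepG2-only peaks, 0.364 in K562-only peaks, 0.507 in HepG2-only promoter peaks and 0.638 in common peaks. Windows with a ratio above 0.6 and GC above 50%, as in CpG islands, made up 5.28% of the HepG2-only peaks and 56.2% of common peaks. These CpG values were not tested.

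G4 motifs, by the pattern counted here, were rare in these peaks. The motif was counted on either strand where loops of 1 to 7 bases, of any kind, separate 4 stretches of 3 or more G. It was inside 150 of 1990 peaks (7.54%, 95% Wilson interval 6.46 to 8.78). It was inside 28.7% of common peaks (odds ratio 0.202, 0.154 to 0.266, Fisher's exact adjusted p = 1.93e-27), 20.2% of K562-only peaks (0.322, 0.257 to 0.405, adjusted p = 2.69e-22) and 12.9% of HepG2-only promoter peaks (0.549, 0.425 to 0.709, adjusted p = 7.58e-06). Of all 8776 HepG2 high-confidence peaks, 20.6% held it. The paper reports that most HepG2 G4 peaks held sequences that formed G4s in an in vitro polymerase stop assay. Those sequences were not searched here, so a peak without this motif may still hold sequence able to form a G4. A run of at least 3 G on either strand was in 93.8% of the HepG2-only peaks.

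The motif difference moved with GC content. Among peaks whose 200 bp window held 50 to 60% GC, a comparison chosen after seeing the data, the share was 4.98% of 1125 HepG2-only peaks, and the odds ratio was 1.07 (0.578 to 1.99) against K562-only peaks, 1.03 (0.582 to 1.82) against HepG2-only promoter peaks, each with a Fisher's exact adjusted p = 1.00, and 0.337 (0.145 to 0.780, adjusted p = 0.0532) against 52 common peaks. The lower share was therefore not found at like GC against the K562-only or promoter peaks. Among peaks of 150 to 250 bp the motif was in 8.33% of HepG2-only, 27.6% of K562-only, 29.7% of common and 16.5% of HepG2-only promoter peaks, with a median GC of 56.2%, 63.5%, 66.5% and 61.4%.

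A motif was more often present when the searched stretch was larger. It was in 9.40% of the 200 bp windows, and in 16.9% of the wider intervals called in at least 2 replicates. In the peaks of at least 250 bp its share was 23.2%, and in those under 100 bp 1.53%. With runs of at least 2 G, 60.3% of the HepG2-only peaks held a motif, against 78.2% of K562-only and 87.2% of common peaks. Of the 150 peaks with a motif, 70 had it on the plus strand, 76 on the minus strand and 4 on both. Where the peak lay in protein-coding genes of a single direction and its motifs on a single strand, 55 had the G-runs on the coding strand and 30 on the template strand.

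Letters of hepatocyte factors were found more often around these peaks than around the other sets outside promoters. The letters of HNF4A (CAAAGTCCA) were in the 200 bp around the centre of 76 HepG2-only peaks (3.82%, 95% Wilson interval 3.06 to 4.75), in 0.513% of common peaks and in 0 of 981 K562-only peaks, which allows a share of up to 0.306% by a limit of 3 counts (Wilson upper limit 0.390%). Those of HNF1 (GTTAATNAT) were in 46 (2.31%, 1.74 to 3.07), in 0 of 390 common peaks (up to 0.769% by 3 counts, Wilson 0.975%) and in 0 of 981 K562-only peaks. Those of FOXA (TGTTTAC) were in 165 (8.29%, 7.16 to 9.58), in 2.56% of common and in 1.73% of K562-only peaks. Among all HepG2 high-confidence windows, of the same length, the shares were 1.25%, 0.866% and 3.25%. Among HepG2-only promoter peaks they were 1.90%, 2.23% and 3.90%, so the HNF1 letters were about as common in both HepG2-only sets. These shares were not tested, since the list of factors was chosen with results of these data known.

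Base composition alone differs between the sets, so each pattern was also searched with its letters in reversed order, which keeps the composition. In the HepG2-only peaks the reversed letters were found in 0.151% for HNF4A, 0.101% for HNF1 and 2.56% for FOXA. In windows of 50 to 60% GC, the forward letters were in 3.47% (2.55 to 4.70), 2.49% (1.73 to 3.57) and 9.78% (8.18 to 11.7) of 1125 HepG2-only peaks. They were in 0, 0 and 1.79% of 279 K562-only peaks, where a count of 0 allows up to 1.08% by 3 counts (Wilson 1.36%). The 330 HepG2-only promoter peaks of that class held them in 2.73% (1.44 to 5.10), 3.03% (1.65 to 5.49) and 6.36% (4.20 to 9.53). All 3 intervals overlap those of the HepG2-only peaks outside promoters. In that class the 52 common peaks held HNF4A letters in 3.85% and FOXA letters in 9.62%, with intervals of 1.06 to 13.0 and 4.18 to 20.6, so at this GC the common peaks were not set apart from the HepG2-only peaks by these letters.

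Other hepatocyte patterns were also counted. The letters of C/EBP (TTNCNNAA) were in 26.1% of the HepG2-only peaks and 13.0% of K562-only peaks. Their reversed form was in 16.9% of the HepG2-only and 7.54% of K562-only peaks. In windows of 50 to 60% GC the forward letters did not set the HepG2-only peaks apart from common or promoter peaks. They were there in 28.4% of the HepG2-only, 20.4% of K562-only, 26.9% of common and 34.2% of HepG2-only promoter peaks. Those of ONECUT (ATCAATA) were in 31 peaks (1.56%) against 0.102% of K562-only and 0 of 390 common peaks, and their reversed form was in 0.603%. Letters of at least 1 of these 5 hepatocyte factors were around 751 peaks (37.7%, 35.6 to 39.9), against 14.8% of K562-only, 15.9% of common and 27.3% of HepG2-only promoter peaks, and 83 peaks (4.17%) held at least 2. The C/EBP letters were around 520 of these 751 peaks, so the count rests mostly on that pattern.

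Letters outside the hepatocyte group also differed between the sets. Those of TCF/LEF (CTTTGAT), the DNA-binding partners of beta-catenin, were around 121 HepG2-only peaks (6.08%, 5.11 to 7.22), 0.714% of K562-only, 1.28% of common and 2.90% of HepG2-only promoter peaks. Their reversed form was around 0.754% of the HepG2-only peaks. In windows of 50 to 60% GC the forward letters were around 5.60% (4.40 to 7.10) of the HepG2-only and 1.43% (0.559 to 3.63) of K562-only peaks. There they were around 4.85% (3.01 to 7.73) of HepG2-only promoter and 1.92% (0.340 to 10.1) of common peaks. These last intervals overlap that of the HepG2-only peaks outside promoters. A TCF/LEF and an HNF4A match can share the bases CTTTG. The half-site of nuclear receptors (AGGTCA) was around 30.6% of the HepG2-only, 12.7% of K562-only and 15.9% of common peaks. Its reversed form was around 13.4% of the HepG2-only peaks. In windows of 50 to 60% GC it was around 32.8% of the HepG2-only, 20.8% of K562-only and 36.5% of common peaks. The letters of TEAD (GGAATG) were around 16.7% of the HepG2-only, 6.83% of K562-only and 7.44% of common peaks, and at that GC around 17.9%, 9.32% and 7.69%. RBPJ letters (TGGGAA) were around 17.2% of the HepG2-only and 14.6% of K562-only peaks.

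Letters of GATA factors and of KLF1 were less common than in the K562-only peaks. The GATA letters (AGATAA) were around 8.69% of the HepG2-only peaks (7.53 to 10.0) and 20.9% of K562-only peaks (18.5 to 23.6), but around 4.10% of common (2.54 to 6.56) and 3.90% of HepG2-only promoter peaks (2.82 to 5.38). In windows of 50 to 60% GC they were around 9.87% of the HepG2-only and 39.8% of K562-only peaks. The CACCC box that KLF1 reads (CCACACCC) was around 3.02% of the HepG2-only, 8.15% of K562-only and 4.10% of common peaks. AP-1 letters (TGANTCA) were around 13.2% of the HepG2-only, 16.3% of K562-only and 13.1% of common peaks, with overlapping Wilson intervals. In windows of 50 to 60% GC they were around 14.2% (12.3 to 16.4) of the HepG2-only, 25.4% (20.7 to 30.9) of K562-only and 38.5% (26.5 to 52.0) of common peaks, without overlap with the HepG2-only interval.

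Promoter-type letters were scarcer than in common peaks. The GC box of SP1 and KLF factors (GGGCGG) was around 15.5% of the HepG2-only peaks, 43.1% of K562-only, 43.6% of HepG2-only promoter and 65.9% of common peaks. NRF1 letters (GCGCNTGCG) were around 0.553% against 7.18% of common and 2.85% of K562-only peaks, and the cyclic AMP response element (TGACGTCA) around 0.151% against 1.28% and 1.02%. ETS letters (CCGGAAG) were around 2.51% (1.91 to 3.30) against 7.18% of common peaks, and around 3.36% (2.41 to 4.69) of K562-only peaks, where the intervals overlap. In windows of 50 to 60% GC the HepG2-only and K562-only peaks were close, at 1.69% and 1.79% for ETS and 0.267% and 0.358% for NRF1, and 0 of 52 common peaks held NRF1 letters. The GC box was in that class around 8.71% of the HepG2-only, 14.7% of K562-only and 23.1% of common peaks. The reversed GC box was around 16.5% of the HepG2-only peaks, no less often than the forward form. Hepatocyte letters were found with and without a G4 motif: 33.2% of 187 windows with a G4 motif and 38.2% of 1803 without it held letters of at least 1 of the 5 factors.

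**Figure D2:**
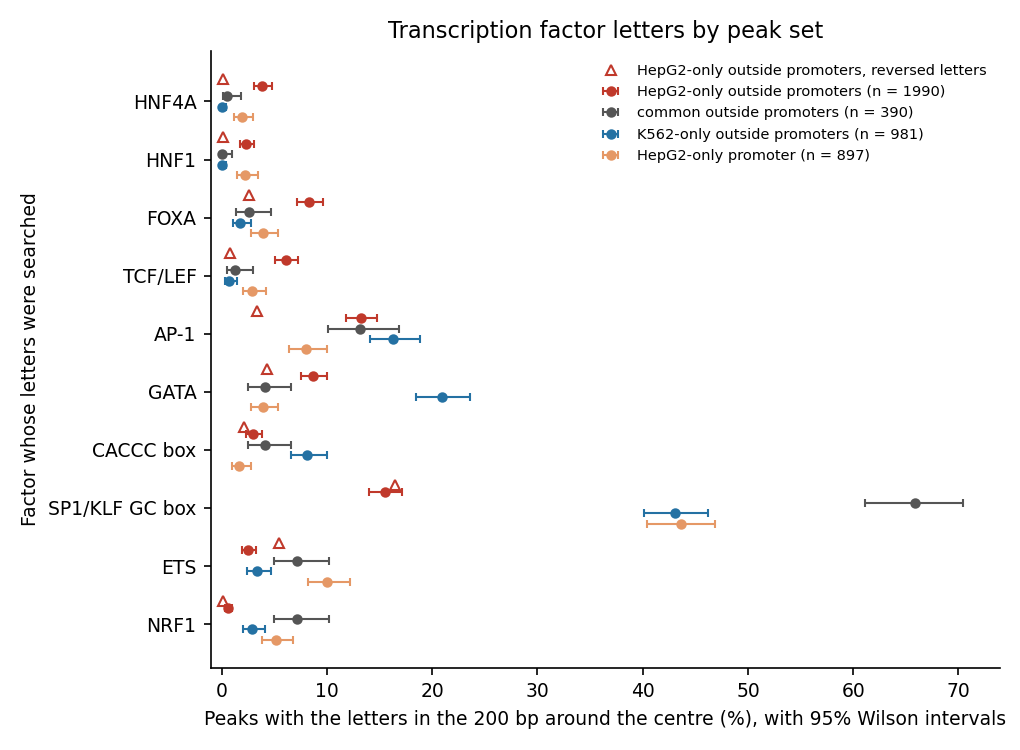
Share of peaks whose central 200 bp hold the letters of each factor on either strand (x axis, percent) for 10 factors (y axis). Filled points with bars give the share and its 95% Wilson interval in the 4 peak sets, and open triangles the same letters reversed in the HepG2-only peaks outside promoters. These peaks lie above the K562-only peaks for HNF4A, HNF1, FOXA and TCF/LEF and below them for GATA, the CACCC box and the GC box.

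By annotation the peaks were mostly intronic. The centre of 1233 peaks (62.0%, 95% Wilson interval 59.8 to 64.1) lay in an intron of a protein-coding or lncRNA gene, that of 181 (9.10%) in an exon and that of 576 (28.9%) between genes. Among common peaks 52.3% and among K562-only peaks 56.2% were intronic. A coding sequence held the centre of 42 peaks and an untranslated region that of 99.

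The peaks lay farther from starts of protein-coding transcripts than the other sets outside promoters. The median distance was 14626 bp (quartiles 4896 and 38209 bp), against 9279 bp for K562-only and 5593 bp for common peaks, and 60.2% of the HepG2-only peaks were more than 10 kb away. To a TSS of any transcript, lncRNAs and non-coding forms included, the median was 5390 bp. The promoter was defined upstream only, so 205 peaks (10.3%) lay within 1 kb downstream of their nearest TSS, against 28.2% of common and 19.5% of K562-only peaks. These distances were not tested.

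**Figure D3:**
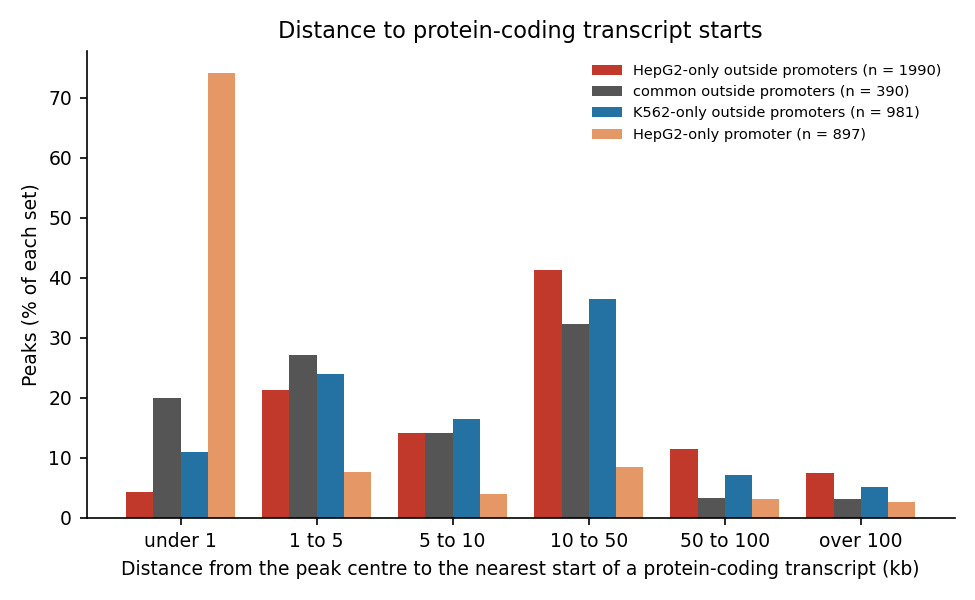
Distance from the peak centre to the nearest start of a protein-coding transcript (x axis, kb, in 6 classes) against the share of each of the 4 peak sets (y axis, percent, bars from 0). Of the HepG2-only peaks outside promoters, 4.32% lie under 1 kb and 41.3% between 10 and 50 kb, and the promoter peaks, chosen by position, fall mostly under 1 kb.

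A gene hosted most of the peaks. A protein-coding or lncRNA gene held the centre of 1414 peaks (71.1%), and 974 of 20163 protein-coding genes (4.83%) hosted at least 1 peak. A single peak was found in 752 of these hosts and at least 3 in 72. Of the 974 hosts, 38.7% had a HepG2 high-confidence peak in a promoter of their own, against 28.4% of all protein-coding genes, and 41.5% had such a K562 peak, against 33.3%. A promoter peak in HepG2 and none in K562 was found for 10.2% of hosts and 5.80% of all genes. Long genes have more room for a peak, and these shares were not adjusted for length.

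The gene with most peaks was TTC34, with 10 in 149.8 kb at chr1:2568425-2718258. Their width was 63 to 240 bp, their GC content 58.9% to 66.3%, and none held a G4 motif or hepatocyte letters. TTC34 also held 9 lower-confidence K562 intervals. GSE1, a coregulator gene of 506.7 kb, followed with 8 peaks, and it also held 61 lower-confidence K562 intervals. NOL4L and SEPTIN9, a cytoskeletal septin, held 7 each. SLC7A5, the large neutral amino acid transporter LAT1, held 6 in only 39.5 kb, which gave 15.2 peaks per 100 kb against 1.17 to 6.67 in the other 9 of the 10 leading hosts. GNG7, HS6ST1, KIFC3, MSI2 and the lncRNA LINC02580 held 5 each.

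Some of the peaks lay in clusters. With neighbours at most 10 kb apart, 560 peaks (28.1%, 95% Wilson interval 26.2 to 30.2) fell into 243 clusters, against 23.2% of K562-only, 18.5% of HepG2-only promoter and 14.4% of common peaks. A larger set places more neighbours within a fixed distance, so these shares are not comparable between sets of different size. Of the clusters 191 were pairs. Pieces of a single wider interval count as neighbours here, and with intervals merged within 100 bp first the share was 22.0%.

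The largest cluster held 7 peaks over 27850 bp at chr16:87876752-87904601, in and around SLC7A5. They were 124 to 410 bp wide with a median GC of 55.4%, and 1 had a G4 motif and 2 hepatocyte letters. The K562 lower-confidence list held 3 intervals between them. At TTC34, 6 peaks lay within 2781 bp at chr1:2583673-2586453, with 4 HepG2 lower-confidence intervals and no K562 interval there. Another 6 lay over 15136 bp at chr3:50233170-50248305, at GNAT1, the rod transducin, and SLC38A3, a glutamine transporter of liver and other tissues, also with no K562 interval. At HS6ST1, a heparan sulfate sulfotransferase, 5 peaks at chr2:129064007-129067376 came from 2 lower-confidence intervals and included a 1 bp peak. The next cluster, 4 peaks at chr1:2619699-2629295, was the first by position of 10 clusters of 4 and again lay in TTC34. There the K562 lower-confidence list held 3 intervals.

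**Figure D4:**
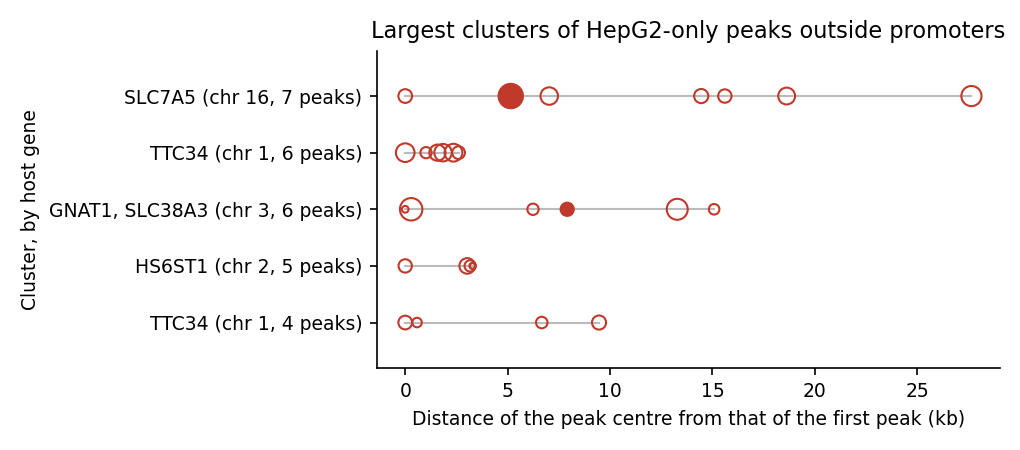
Distance of each peak centre from that of the first peak (x axis, kb) in the 5 clusters with most HepG2-only peaks outside promoters (y axis, by host gene). Each circle is a peak with its area scaled to the width, with a smallest size for the narrowest, and filled circles hold a G4 motif. The SLC7A5 cluster extends over 27850 bp and the denser TTC34 cluster over 2781 bp.

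The peaks were spread unevenly over the chromosomes. Chromosomes 17 (200 peaks), 2 (194), 1 (160), 16 (155) and 20 (148) held most. Chromosomes 2, 14, 16, 17 and 20, a group chosen with earlier results of these data known, held 39.1% of the HepG2-only peaks outside promoters, 41.0% of the HepG2-only promoter peaks, 27.9% of common and 16.6% of K562-only peaks. They held 32.7% of all HepG2 high-confidence peaks and make up 18.9% of the length of the chromosomes. As a share of the HepG2 high-confidence peaks of a chromosome, HepG2-only peaks outside promoters ranged from 14.8% (95% Wilson interval 11.2 to 19.5) on chromosome 5 and 15.4% (13.0 to 18.1) on chromosome 19 to 33.9% (29.6 to 38.4) on chromosome 20 and 34.3% (28.6 to 40.5) on chromosome 22. On chromosome X, 0 of 41 HepG2 peaks belonged to the set, which allows a share of up to 7.32% by 3 counts (Wilson 8.57%). Copy number of either cell line was not analysed here, and its part in these shares was not tested.

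**Figure D5:**
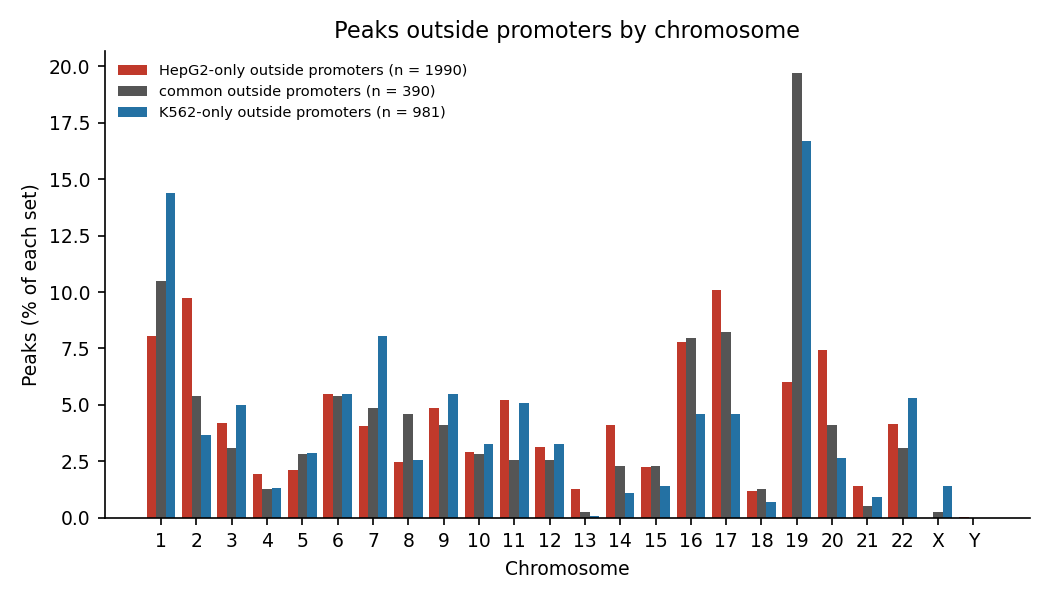
Share of the peaks of 3 sets outside promoters (y axis, percent of each set, bars from 0) on each chromosome (x axis). Chromosomes 2, 17 and 20 hold 9.75%, 10.1% and 7.44% of the HepG2-only peaks and 3.67%, 4.59% and 2.65% of the K562-only peaks, and chromosome 19 holds more of the common and K562-only than of the HepG2-only peaks.

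Genes of 6 lists were read against the peaks, counting a gene where a peak centre lay in its body or in the 10 kb before it. Of all 20136 protein-coding gene symbols, 6.07% had a HepG2-only peak outside promoters and 3.60% a K562-only peak. The lists are small, their genes differ in length (median 14.5 kb for plasma proteins to 42.3 kb for the Wnt list, 27.2 kb for all genes), and no test was run.

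Among hepatocyte transcription factors, 9 of 36 genes (25.0%, 95% Wilson interval 13.8 to 41.1) had a HepG2-only peak and 2 a K562-only peak. The 2, RXRA and NR2F6, were also among the 9. RXRA had 4 peaks of 86 to 231 bp, all in the gene body, with 7 lower-confidence K562 intervals elsewhere in the same region. It also had a K562 high-confidence promoter peak and no HepG2 one. HNF4A, the nuclear receptor that controls much of the hepatocyte programme, had 3 intronic peaks of 201, 368 and 334 bp and no K562 interval in either list. The widest lay at chr20:43023182-43023549, 39027 bp into the gene, with a GC content of 52.7%. CEBPB had 2 peaks upstream of it, the wider of them 1601 bp from the start with a G4 motif. Single peaks lay at SREBF1, the regulator of lipid synthesis, at MLXIPL, NR2F6 and TCF7L2, and GATA4 had 2.

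Among liver enzymes and transporters, 9 of 46 genes (19.6%, 10.7 to 33.2) had a HepG2-only peak and 2 a K562-only peak. HPD had both. ASS1 had 3 intronic peaks of 157, 216 and 154 bp. SCARB1 had 2 of 206 and 138 bp. ABCC3 (a bile salt exporter), HPD (tyrosine breakdown), FASN (fatty acid synthesis) and FBP1 (gluconeogenesis) had 1 each, and the exonic peak at HPD held a G4 motif.

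Among plasma proteins of the liver, 6 of 47 genes (12.8%, 5.98 to 25.2) had a HepG2-only peak and 2 a K562-only peak. At AMBP 3 peaks of 117, 212 and 85 bp lay upstream of the gene, all with hepatocyte letters around them and none with a K562 interval nearby. ITIH1 had a peak 2043 bp upstream of its start, APOC3 a 224 bp peak 2713 bp upstream and APOE an 87 bp peak 1703 bp upstream. ITIH4 had a 115 bp intronic peak. The defining hepatocyte genes ALB, AFP and TTR had no interval in any of the 4 lists.

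The erythroid list stood at the background for HepG2-only peaks. Of its 43 genes, 3 (6.98%, 2.40 to 18.6) had a HepG2-only peak and 11 (25.6%, 14.9 to 40.2) a K562-only peak, among them GATA1, KLF1, NFE2 and GFI1B. The 3 were ZFPM1, which encodes the GATA cofactor FOG1 and had 2 peaks with G4 motifs beside 19 lower-confidence K562 intervals, TSPO2 and RUNX1. ZFPM1 and RUNX1 also had a K562-only peak.

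In the Wnt and beta-catenin list, 9 of 50 genes (18.0%, 9.77 to 30.8) had a HepG2-only peak and 2 a K562-only peak. RNF43 and ZNRF3, ubiquitin ligases that remove Wnt receptors from the cell surface, had 3 and 2. The largest at RNF43 was a 397 bp intronic peak at chr17:56468866-56469262. LRP5, a Wnt co-receptor, had 2 of 135 and 121 bp, and SP5, NKD1, TCF7L1, TCF7L2, LGR4 and BCL9L had 1 each. Among epithelial adhesion and keratin genes, 7 of 46 (15.2%, 7.57 to 28.2) had a HepG2-only peak and 4 a K562-only peak. LLGL2 had 3, and DSP, which encodes desmoplakin, had a 145 bp intronic peak with HNF1 letters and no K562 interval.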

How the data were processed

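G4 ChIP-seq was performed in K562 and HepG2 cells. Per the paper's methods the authors trimmed reads, mapped the reads with BWA to hg19, dropped duplicates, called peaks with MACS2 in each replicate and merged replicates with bedtools multiinter. What they deposited are start and end positions in bp for 4 lists (found in at least 5 or 2 of 8 K562 and 6 or 2 of 9 HepG2 replicates). They hold no read count, height or q-value, so depth is unknown and replicates could not be compared.

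From there, intervals were compared with scripts in Python 3.11.15 (scipy 1.17.1, pysam 0.24.0), with functions tested on simulated data. An overlap is at least 1 shared bp. Sequence came from GRCh37, whose chromosome lengths hold every interval, and genes from GENCODE 44 lifted to that build, whereas the authors used version 19. The mitochondrial chromosome was left out. Annotation classes and hosts were taken at the peak centre. Fisher's exact tests were adjusted by the Benjamini-Hochberg method over 6 tests, and Wilson intervals cover the counting of peaks only. Factor letters, 16 patterns, were searched on both strands.

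The members, gene lists and factors were chosen with earlier results of these data known. Named in the text were the 10 widest peaks, the 10 genes hosting most, the 5 largest clusters, peaks at the edge of the choice, listed genes with a peak and the peaks with most motifs. Some of these items are not reported here. The alternatives tried changed the K562 list, the HepG2 list, the promoter, the width, merging, the motif, the GC limit and the cluster distance.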

Additional observations from a re-analysis of the deposited data

Results flagged for a closer look

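A signal was found in data that the comparisons leave out. On the mitochondrial chromosome 29 HepG2 high-confidence intervals were listed, 0.329% of the 8805 deposited, which together covered 7902 bp. The K562 high-confidence list held 0 there. The lower-confidence lists held 20 mitochondrial intervals in HepG2, covering 12668 bp, and 18 in K562, covering 6385 bp. The cause was not tested.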

How the results depend on the processing

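All 36 alternatives for the 3 GC comparisons kept an odds ratio below 1 and an adjusted p under 0.05, and so did the 39 planned ones for the 3 motif comparisons. In windows of 50 to 60% GC, chosen after seeing the data, the motif odds ratio was 0.337 against common peaks (Fisher's exact test, adjusted p = 0.0532). It was 1.07 (0.578 to 1.99) against K562-only and 1.03 (0.582 to 1.82) against HepG2-only promoter peaks, so no difference was found there. The motif share of 7.54% became 10.5% in peaks of at least 100 bp, 12.9% with loops of up to 12, 60.3% with runs of 2 G, 9.40% in 200 bp windows, 16.9% in the containing lower-confidence intervals and 4.98% in windows of 50 to 60% GC. With the HepG2 list of at least 2 of 9 replicates there were 13134 such peaks in place of 1990, 58.3% of them intronic and 58.9% in clusters. With protein-coding genes only, 53.8% were intronic. The share in clusters was 21.8% and 18.2% for widths of at least 50 and 100 bp, 22.0% after merging, and 22.3% and 47.2% at 5 and 50 kb. With that longer HepG2 list, HNF4A, HNF1, FOXA and TCF/LEF letters were around 1.96%, 1.04%, 4.73% and 3.34% of peaks. No replicate could be left out and no paired analysis was possible because the lists merge the replicates and carry no replicate numbers. Missing peak heights and depth limit every call of absence from K562.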
